A study of Mus musculus with 2 samples.

Results

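The genes described here encode the proteasome, the protease that degrades ubiquitin-tagged proteins, in single cells of subcutaneous RM-1 tumours. They were chosen by name: every feature whose symbol is Psma, Psmb, Psmc, Psmd or Psme followed by a digit, without Psmb8, Psmb9 and 5 pseudogenes, and with at least 10 CPM in pooled tumour cells. CPM are unique transcript molecules (UMIs) of a gene scaled to 1000000 UMIs of the same cells. Of 44 matching features among 55357 in all, 41 passed, against 7827 features of any name at that level. Psma8, Psmb11 and Psme2b did not pass. The member nearest above the limit was Psmc3ip at 17.67 CPM, and the nearest below was Psme2b at 2.86 CPM.

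Of the 41, 39 are subunits, chaperones or activators of the proteasome. Psmc3ip and Psme3ip1 are interacting proteins that match the name rule but are not among these, so sums below leave them out. The working name of the set, constitutive subunits, also covers Psmb10, Psme1 and Psme2, which are known to be induced by interferon. The choice used the level in tumour cells of both libraries together, so high levels as such are no finding.

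RM-1 is a mouse prostate cancer line, here of genotype WT per the labels, implanted in C57BL/6 mice. Tumours were taken at day 10 of treatment with RP-6306, an inhibitor of the kinase PKMYT1, or with vehicle. Each treatment has 1 library of the 10x Genomics 3′ kind. How many mice each holds is not stated clearly, and no spread between animals could be measured, so no test was made. "Higher" and "lower" therefore compare these libraries. The 95% intervals in parentheses are exact, cover counting error only and treat UMIs as independent.

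After filtering there were 10308 cells with RP-6306 and 9540 with vehicle. Tumour cells, taken by their Krt8 and Krt18 UMIs and few leukocyte UMIs, numbered 7825 with RP-6306 and 7470 with vehicle, at median depths of 10325 and 10305.5 UMIs. Macrophages, taken by Lyz2 with Cd68 or Csf1r, numbered 279 with RP-6306 and 271 with vehicle, at medians of 4370 and 4806 UMIs. The 7 macrophage markers left unused by the gate, among them Adgre1 and Mrc1, summed to 10540 and 9236 CPM in macrophages and to 15.7 and 14.05 CPM in tumour cells. The 5 tumour markers left unused by the gates summed to 453 and 571 CPM in tumour cells and to 26.8 and 39.5 CPM in macrophages. One of them, Krt7, had only 0.0438 and 0.0570 CPM in tumour cells and 0 in macrophages. The gate gene Krt8 itself stood at 785 CPM with RP-6306 and 1036 CPM with vehicle. The libraries share 34 barcode sequences.

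The proteasome is built from a 20S core and caps. The core stacks rings of alpha subunits (Psma genes), which gate the entry, on rings of beta subunits (Psmb genes), of which Psmb6, Psmb7 and Psmb5 cut protein chains. In cells exposed to interferon these 3 catalytic subunits are replaced by Psmb9, Psmb10 and Psmb8. The 19S cap has a base with a ring of ATPases (Psmc genes) that unfold the substrate, and a lid (most Psmd genes) that carries the deubiquitinase Psmd14. Psme genes encode alternative caps: Psme1 and Psme2 form the interferon-inducible PA28 cap, Psme3 a nuclear relative and Psme4 the cap PA200. When proteasome activity falls, the factor NRF1 (Nfe2l1) is known to raise most subunit genes together through antioxidant-response elements in their promoters.

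In tumour cells the 39 genes together made up 0.776% of all UMIs with RP-6306 and 0.793% with vehicle. Their sum was 7763 CPM (7745 to 7781) with RP-6306 and 7927 CPM (7908 to 7945) with vehicle, a ratio of 0.979 (0.976 to 0.983). The median ratio over all 7827 genes was 0.981, so the set as a whole stood where the typical gene stood. The 15 core genes summed to 4702 CPM with RP-6306 and 4772 CPM with vehicle (ratio 0.985, 0.981 to 0.990). The 17 cap genes summed to 2577 and 2663 CPM (ratio 0.968, 0.962 to 0.973). The 4 activators summed to 358 and 362.5 CPM (ratio 0.988, 0.973 to 1.003), and the 3 chaperones of cap assembly to 126 and 130 CPM. All of these class sums were within 4% of equal between the libraries.

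Single members spread more than the class sums. None of the 41 was at least 1.1-fold higher with RP-6306, against 9.80% of all genes tested. Psmd8 and Psmd13, both lid subunits, were at least 1.1-fold lower, which is 4.88% of the members against 20.2% of all genes tested. Neither was at that fold with TMM scaling or with a total that leaves out ribosomal, mitochondrial and Malat1 UMIs. The member ratios ran from 0.905 to 1.065 with a median of 0.975. Over all genes the 10th to 90th percentiles were 0.867 and 1.10, and over the members 0.945 and 1.03. A ratio above 1 was found for 13 members (31.7%), against 41.1% of all genes tested. By counting error alone, 4 members (9.76%) had an interval above 1, against 22.1% of all genes tested. They were Psma7, Psmb10, Psmd7 and Psme3ip1. A further 23 (56.1%) had an interval below 1, against 37.6% of all genes tested, and 14 included 1. Counting intervals narrow as UMIs rise, so these shares also depend on the level of the genes.

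**Figure D1:**
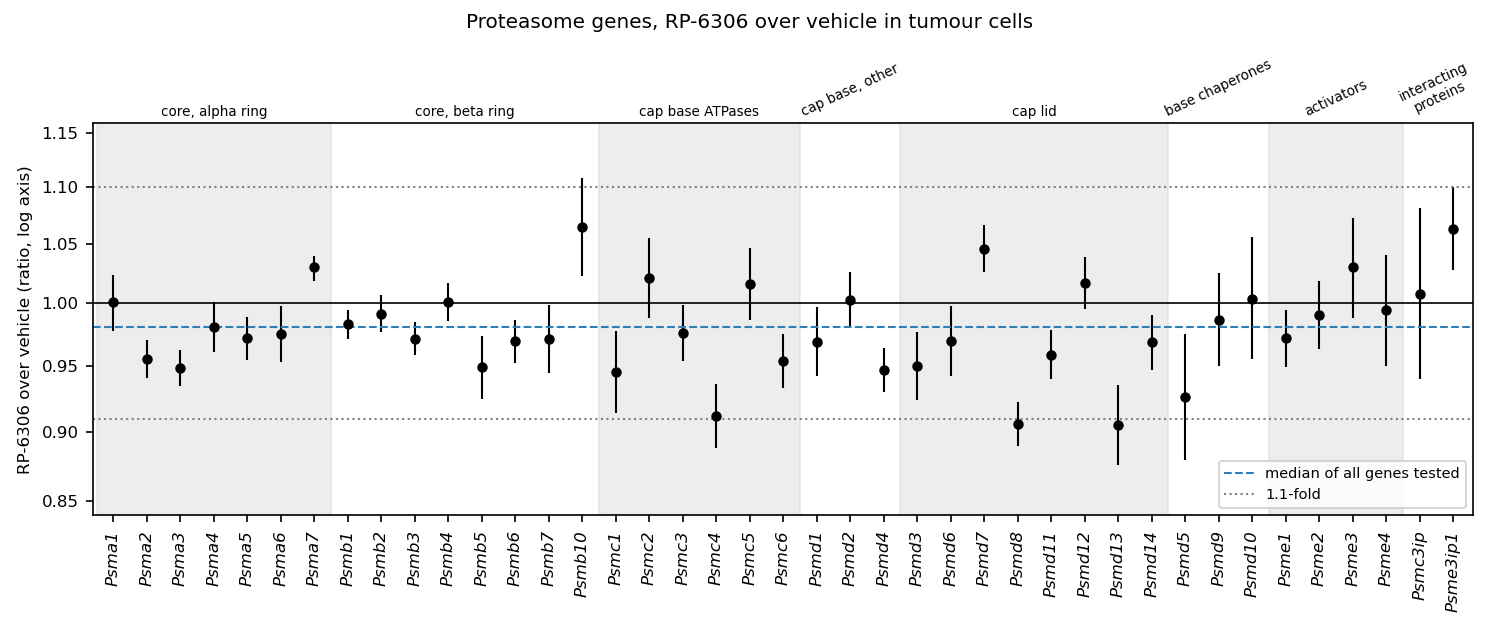
Ratio of the level with RP-6306 over that with vehicle in tumour cells for each of 41 members, on a log axis, grouped by place in the proteasome. Points are ratios of CPM, bars are exact 95% counting intervals, the dashed line is the median of all genes tested (0.981) and dotted lines mark 1.1-fold. Psmd8 and Psmd13 lie below the lower dotted line and no point lies above the upper one.

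The alpha ring held the most abundant member. Psma7 stood at 852 CPM (846 to 858) with RP-6306 and 828 CPM (821.5 to 834) with vehicle, and its ratio of 1.03 (1.02 to 1.04) was the highest of the ring. Psma6 was the lowest of the ring, at 159 CPM with RP-6306 and 163 CPM with vehicle (ratio 0.975, 0.953 to 0.998). Psma3 had the lowest ratio, with 391 CPM (387 to 395) in the RP-6306 library and 412 CPM (408 to 417) in the vehicle library (0.948, 0.935 to 0.9625). Levels within the ring thus spread widely, while its ratios stayed close to each other. Psma8, the testis form of an alpha subunit, had no UMI in either set of tumour cells, which allows up to 0.0404 CPM with RP-6306 and 0.0421 CPM with vehicle at the upper end of the exact interval.

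In the beta ring the noncatalytic Psmb1 was the most abundant, at 589 CPM with RP-6306 and 599 CPM with vehicle (ratio 0.983, 0.971 to 0.995). Of the catalytic genes, Psmb6 (beta1, caspase-like) had 270.0 CPM (267 to 273) with RP-6306 and 278.5 CPM (275 to 282) with vehicle, a ratio of 0.969 (0.952 to 0.987). Psmb7 (beta2, trypsin-like) had 108 CPM (105.5 to 109.8) with RP-6306 and 111 CPM (109 to 113) with vehicle, a ratio of 0.971 (0.944 to 0.999). Psmb5 (beta5, chymotrypsin-like and the main target of the drug bortezomib) had 124 CPM (122 to 126) with RP-6306 and 131 CPM (128 to 133) with vehicle, and its ratio of 0.949 (0.9245 to 0.974) was the lowest of the ring. All 3 were slightly lower with RP-6306. Psmb10, the inducible beta2, was the least abundant of the ring and had the highest ratio of all members: 54.3 CPM (52.8 to 55.8) with RP-6306 and 51.0 CPM (49.5 to 52.5) with vehicle, a ratio of 1.065 (1.02 to 1.11).

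Among the 6 ATPases of the cap base, Psmc6 was the most abundant, at 172 CPM with RP-6306 and 181 CPM with vehicle (ratio 0.954, 0.933 to 0.975). Psmc1 was the least abundant, at 75.2 CPM with RP-6306 and 79.6 CPM with vehicle (ratio 0.945, 0.914 to 0.977). Psmc4 had the lowest ratio, 0.911 (0.888 to 0.936), from 119 CPM with RP-6306 and 131 CPM with vehicle. Psmc2 had the highest, 1.02 (0.988 to 1.055), from 81.3 and 79.6 CPM. These ATPases sit in a single ring with 1 copy of each, yet Psmc6 had well over the level of Psmc1 in both libraries.

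The other base subunits are scaffolds and ubiquitin receptors. Psmd4, a ubiquitin receptor, stood at 247 CPM (244 to 250.2) with RP-6306 and 261 CPM (257.5 to 264) with vehicle (ratio 0.947, 0.929 to 0.964). The scaffold Psmd1 was at 108 and 111 CPM (ratio 0.969, 0.942 to 0.997), and the scaffold Psmd2 at 172 and 171 CPM (ratio 1.003, 0.981 to 1.03). In the lid, Psmd8 was the most abundant gene, at 255 CPM (252 to 258) with RP-6306 and 282 CPM (278 to 285) with vehicle (ratio 0.905, 0.889 to 0.922). Psmd13 was the least abundant, at 76.0 CPM (74.2 to 77.8) with RP-6306 and 84.0 CPM (82.1 to 85.9) with vehicle (ratio 0.905, 0.875 to 0.935). Psmd7, the partner of the deubiquitinase Psmd14, had the highest ratio of the lid, 1.05 (1.03 to 1.07), from 239 and 228 CPM. The lid held the lowest ratios of all members.

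The chaperones that help assemble the base were the least abundant class. Psmd9 had 60.2 CPM with RP-6306 and 61.0 CPM with vehicle (ratio 0.987, 0.950 to 1.025). Psmd10, also known as gankyrin, had 35.1 and 35.0 CPM (ratio 1.004, 0.956 to 1.056). Psmd5 had 31.0 and 33.5 CPM (ratio 0.926, 0.879 to 0.975). Of the activators, Psme1 had 156 CPM (154 to 159) with RP-6306 and 161 CPM (158 to 164) with vehicle, a ratio of 0.972 (0.949 to 0.9945). Psme2 had 109.5 CPM (107 to 112) with RP-6306 and 110.5 CPM (108 to 113) with vehicle, a ratio of 0.991 (0.963 to 1.02). Psme3 had 51.4 and 49.95 CPM (ratio 1.03, 0.988 to 1.07), and Psme4 had 40.8 and 41.0 CPM (ratio 0.9945, 0.950 to 1.04). No activator differed by as much as 5% between the libraries. Psme2b, a close copy of Psme2, had 2.92 and 2.81 CPM, and reads that match both copies are discarded in counting, so the level of Psme2 may be understated.

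**Figure D2:**
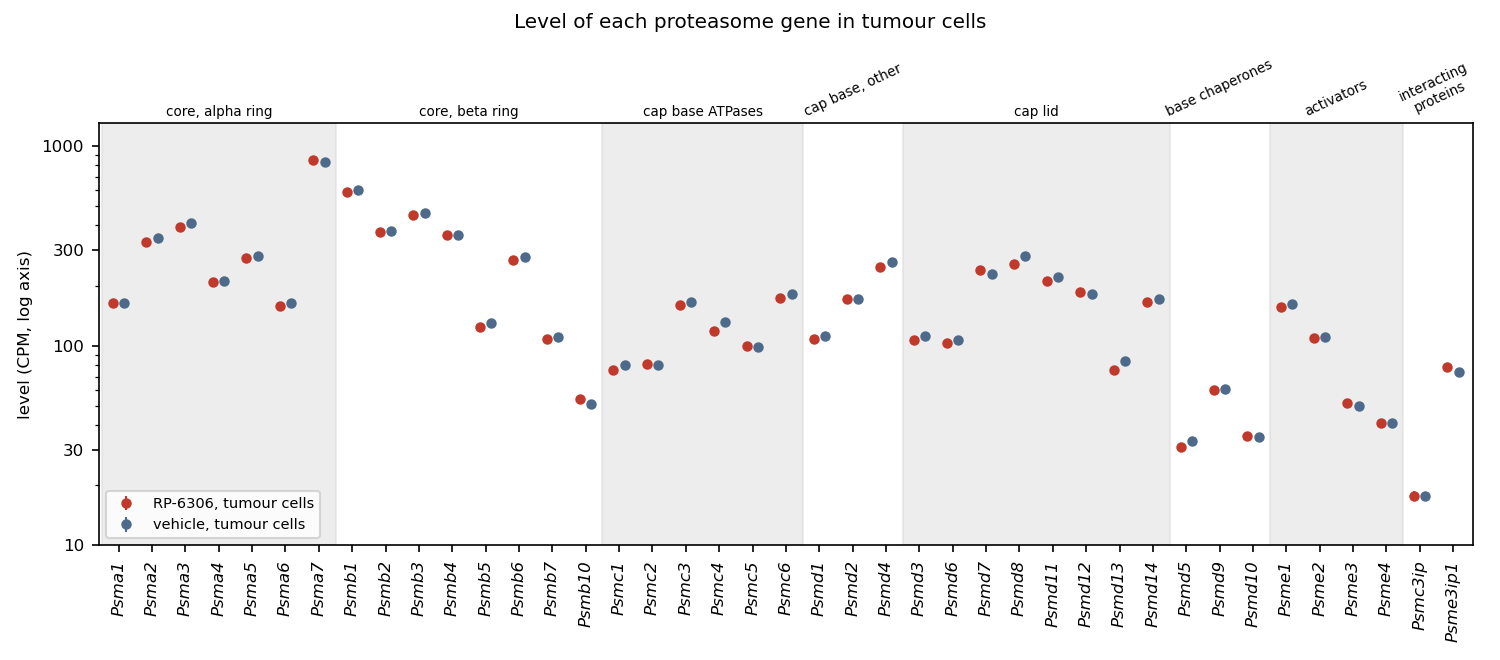
Level of each of 41 members in tumour cells, in CPM on a log axis, grouped by place in the proteasome, with RP-6306 left of vehicle. Bars, mostly hidden by the points, are exact 95% counting intervals. Levels ran from Psmc3ip at 17.7 CPM to Psma7 at 852 CPM in the RP-6306 library, and the points of each pair almost coincide.

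The order of the members was nearly the same in both libraries, with a Spearman rho of 0.997 over the 41 genes in tumour cells. This is a description across genes, which are not independent replicates. The median core gene stood at 274 CPM with RP-6306 and 282 CPM with vehicle, the median cap gene at 160.5 and 164.5 CPM, and the median activator at 80.5 and 80.2 CPM. UMIs of 3′ libraries count molecules whatever the transcript length, but capture differs between genes, and reads shared with pseudogenes are lost. Levels of different genes are therefore approximate, although each core and cap subunit occurs at a fixed copy number in the particle.

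A lower G2/M signal accompanied RP-6306 in tumour cells: 10 genes of mitosis, such as Top2a and Plk1, summed to 1193 CPM with RP-6306 and 1465 CPM with vehicle. To see the members at a like G2/M level, cells were thinned to 4000 UMIs each and binned by the summed UMIs of this list, at 0 to 1, 2 to 4, and 5 or more. The RP-6306 over vehicle ratio of the 39 genes was 0.989 (0.982 to 0.996) in the low bin, 1.02 (1.001 to 1.04) in the middle bin and 0.979 (0.968 to 0.990) in the high bin. In the middle bin the direction was the opposite of that over all tumour cells.

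Within each library the members followed the G2/M list. In the high bin (1691 cells with RP-6306, 1851 with vehicle) the 39 genes summed to 8231 CPM with RP-6306 and 8408 CPM with vehicle. In the low bin (5082 and 4548 cells) they summed to 7234 and 7315 CPM. High over low was 1.14 (1.13 to 1.15) in the RP-6306 library and 1.15 (1.14 to 1.16) in the vehicle library, while the median over all genes was 1.03 and 1.01. The interval lay above 1 in both libraries for 31 of 39 members (79.5%), against 26.5% of all genes tested. It lay below 1 in both for 3 members (7.69%), against 19.1% of all genes tested.

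The increase reached both the core and the cap and was somewhat larger in the cap. The core had 1.134 (1.12 to 1.149) with RP-6306 and 1.146 (1.132 to 1.16) with vehicle. The cap had 1.176 (1.156 to 1.196) with RP-6306 and 1.185 (1.166 to 1.205) with vehicle. Psmd7 had 278 CPM in the high bin and 208 CPM in the low bin with RP-6306, a ratio of 1.34 (1.27 to 1.41), and 254 and 199 CPM with vehicle, a ratio of 1.28 (1.21 to 1.35). Psmc3, an ATPase, had ratios of 1.31 (1.23 to 1.40) with RP-6306 and 1.33 (1.25 to 1.42) with vehicle. Psmb5 had ratios of 1.145 (1.06 to 1.24) and 1.27 (1.18 to 1.37). A ratio above 1 in both libraries was found for 33 members (84.6%), against 44.8% of all genes tested, and one below 1 in both for 6 (15.4%), against 39.4%. Those with both intervals below 1 were Psmd8 (0.8815 with RP-6306 and 0.870 with vehicle), Psmb10 (0.797 and 0.851) and Psme1 (0.839 and 0.831). Psmb10 and Psme1 are interferon-inducible, and Psmd8 belongs to the lid. The other 3 were Psmb1 (0.954, 0.920 to 0.989, with RP-6306 and 0.977, 0.943 to 1.012, with vehicle), Psme4 (0.833 and 0.9745) and Psmd10 (0.9785 and 0.985).

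Cells of the high G2/M bin were deeper before thinning, with medians of 14477 UMIs against 9442 in the low bin with RP-6306, and 14401 against 9296.5 with vehicle. Among cells of 8000 to 16000 UMIs only, a limit chosen after seeing the data, the medians were 12156 against 10707 and 12282 against 10558. There high over low was 1.10 (1.09 to 1.12) with RP-6306 and 1.09 (1.07 to 1.10) with vehicle, and the interval lay above 1 in both libraries for 16 of 39 members (41.0%, against 18.4% of all genes tested). Of the 3 genes with both intervals below 1, only Psmd8 still had them there (2.56%, against 13.4% of all genes tested). Psmb10 had 0.852 (0.712 to 1.016) with RP-6306 and 0.887 (0.746 to 1.052) with vehicle, and Psme1 had 0.891 (0.806 to 0.984) and 0.919 (0.835 to 1.01). At 2000 UMIs a cell the interval lay above 1 in both libraries for 18 members (46.2%, against 17.2% of all genes tested) and below 1 for Psmb10 and Psmd8 (5.13%, against 11.0%). The size and the count thus depended on depth, and the direction of the sum did not in these settings.

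In tumour cells binned by 10 interferon-induced genes, such as Isg15 and Rsad2, the high over low ratio of the core was close to 1 and that of the cap was below 1. The high bin held 613 of 7563 cells with RP-6306 and 180 of 7252 with vehicle. High over low for the 39 genes was 0.990 (0.975 to 1.005) with RP-6306 and 0.989 (0.962 to 1.02) with vehicle. For the core it was 1.008 (0.988 to 1.03) and 0.998 (0.964 to 1.03). For the cap it was 0.9195 (0.895 to 0.945) and 0.939 (0.895 to 0.985), so the cap was lower in the high bin of both libraries. The medians over all genes were 0.979 and 0.969, and the interval of the cap with vehicle included that median. Before thinning, median depth was 9781 UMIs in the high bin against 10613.5 in the low bin with RP-6306. With vehicle it was 8890.5 against 10593. A ratio below 1 in both libraries was found for 15 of 39 members (38.5%, against 37.2% of all genes tested), and one above 1 in both for 6 (15.4%, against 24.2%). Psmb10, Psme1 and Psme2, 3 of 39 members, had an interval above 1 in both libraries (7.69%, against 2.64% of all genes tested). Psmd14 and Psmd8 had one below 1 in both (5.13%, against 2.93% of all genes tested). At 2000 UMIs a cell, Psmb10 and Psme2 had an interval above 1 in both libraries (5.13%, against 1.34% of all genes tested) and Psmd8 one below 1 (2.56%, against 0.664%), and the cap had 0.861 with RP-6306 and 0.898 with vehicle.

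Psmb10 had 95.4 CPM in the high and 49.4 CPM in the low interferon bin with RP-6306, a ratio of 1.93 (1.67 to 2.23). With vehicle it had 104 and 49.1 CPM, a ratio of 2.12 (1.66 to 2.68). Psme1 had ratios of 1.38 (1.26 to 1.52) with RP-6306 and 1.455 (1.24 to 1.695) with vehicle. Psme2 had ratios of 1.37 (1.22 to 1.53) and 1.29 (1.05 to 1.57). These are the interferon-inducible genes of the set, and Psmb8 and Psmb9, outside it, had ratios of 1.83 and 2.40 with RP-6306 and 1.615 and 1.745 with vehicle. The catalytic Psmb5, which Psmb8 replaces, had 0.887 (0.779 to 1.01) and 0.921 (0.733 to 1.14).

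Within interferon bins Psmb10 was not higher with RP-6306 than with vehicle beyond counting error. The RP-6306 over vehicle ratio was 1.005 (0.9255 to 1.09) in the low bin, 0.894 (0.755 to 1.06) in the middle bin and 0.916 (0.7035 to 1.205) in the high bin, against 1.065 over all tumour cells. Psme2 had 0.930 (0.879 to 0.983) in the low bin and 0.989 (0.792 to 1.245) in the high bin. Bins are ranges of a score and not cell types, and the G2/M and interferon lists were read from the same thinned counts.

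**Figure D3:**
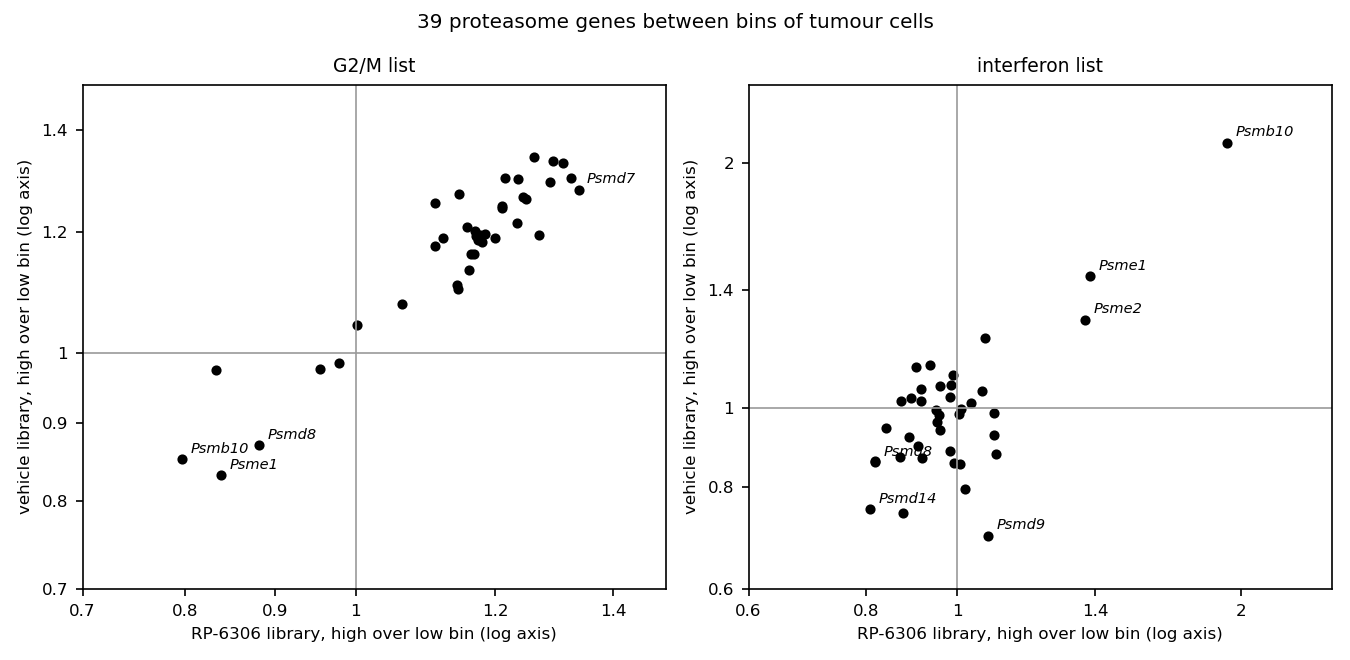
High over low bin ratio of each of 39 proteasome genes in tumour cells thinned to 4000 UMIs, RP-6306 library on the x axis and vehicle library on the y axis, both on log axes, for bins by the G2/M list (left) and by the interferon list (right). Most points lie above 1 in both libraries for G2/M, and Psmb10, Psme1 and Psme2 stand apart for interferon, with Psmb10 at 1.93 and 2.12.

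The last list held 10 heat shock genes, chaperones such as Hspa8 and Hsp90aa1, only some of which cells raise when proteins misfold. Between its high and low bins the 39 genes had a ratio of 1.02 with RP-6306 and 0.974 with vehicle. No member had an interval on the same side of 1 in both libraries, against 3.18% of all genes above and 5.24% below. The ratio itself was above 1 in both for 9 members (23.1%, against 20.9% of all genes tested) and below 1 in both for 12 (30.8%, against 42.7%). The sum thus lay above 1 in the RP-6306 library and below 1 in the vehicle library. The medians over all genes were 0.98 with RP-6306 and 0.966 with vehicle, so the sum lay above the median gene in both.

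In macrophages, with fewer cells, most members did not differ between treatments beyond counting error. The 39 genes summed to 6487 CPM (6349 to 6627) with RP-6306 and 6640 CPM (6506 to 6777) with vehicle, a ratio of 0.977 (0.948 to 1.006). The core had a ratio of 0.986 (0.948 to 1.025), the cap 0.957 (0.908 to 1.008) and the activators 0.986 (0.885 to 1.10). Within the cap, the lid had 0.916 (0.853 to 0.984), an interval below 1. The base ATPases had 0.987 (0.893 to 1.09) and the other base subunits 1.04 (0.9165 to 1.17). Psmc3ip was at least 1.25-fold higher with RP-6306, which is 2.44% of the members against 16.0% of all genes tested. Psmc5, Psmd3 and Psme3ip1 were at least 1.25-fold lower, 7.32% against 20.7% of all genes tested. A ratio above 1 was found for 18 members (43.9%), against 46.9% of all genes tested. For 38 of 41 members the interval included 1. It lay above 1 for 1 member (2.44%, against 4.01% of all genes tested) and below 1 for 2 (4.88%, against 5.52%). The ubiquitin receptor Psmd4 had 174 CPM with RP-6306 and 142 CPM with vehicle (ratio 1.22, 1.006 to 1.49), and the lid subunit Psmd8 had 264 and 326 CPM (0.808, 0.701 to 0.932), the same side as in tumour cells. Fibroblast markers in the macrophage gate summed to 30.7 CPM with RP-6306 and 146 CPM with vehicle, all 3 of the list being detected, and their part in these ratios was not tested. In the tumour gate the same markers summed to 200.5 CPM with RP-6306 and 178 CPM with vehicle. There 3 endothelial markers summed to 57.05 and 44.6 CPM. In each of these lists 1 gene had at least 10 CPM in pooled tumour cells, and their part in the tumour ratios was not tested either.

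Summed core and cap genes were lower in CPM in macrophages than in tumour cells, by about as much as the median gene. The interferon-inducible members were higher. The 39 genes had a macrophage over tumour ratio of 0.836 (0.818 to 0.854) in the RP-6306 library and 0.838 (0.821 to 0.855) in the vehicle library, beside medians over all genes of 0.809 and 0.813. The ratio of the core was 0.8105 and 0.810, and that of the cap 0.808 and 0.817. That of the activators was 1.39 (1.28 to 1.50) and 1.39 (1.29 to 1.50). Each of the 4 activators had a ratio above 1 in both libraries. The joint ratio of Psme1 and Psme2 was 1.50 (1.375 to 1.64) with RP-6306 and 1.45 (1.33 to 1.58) with vehicle. Psme3 had 1.04 (0.812 to 1.32) and 1.34 (1.08 to 1.64), and Psme4 had 1.07 and 1.05, with intervals that included 1.

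Psmb10, Psme1 and Psme2, 3 of 41 members, were at least 1.25-fold higher in macrophages in both libraries (7.32%, against 17.9% of all genes tested and 21.3% of those with at least 10 CPM in both cell types). Psmb10 had 113.5 CPM (95.96 to 133) in macrophages and 54.3 CPM in tumour cells of the RP-6306 library, a ratio of 2.09 (1.76 to 2.46). In the vehicle library it had 94.9 CPM (79.4 to 112.5) in macrophages and 51.0 CPM in tumour cells, a ratio of 1.86 (1.55 to 2.21). Psme1 had 232 CPM in macrophages of the RP-6306 library and 222 CPM in those of the vehicle library, with ratios of 1.48 (1.32 to 1.66) and 1.38 (1.23 to 1.54). Psme2 had 168 and 172 CPM, with ratios of 1.53 (1.34 to 1.75) and 1.555 (1.36 to 1.77). The same 3 genes were those with an interval above 1 in both libraries between the interferon bins of tumour cells.

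In the other direction, 14 members were at least 1.25-fold lower in macrophages in both libraries (34.1%, against 41.8% of all genes tested and 32.2% of those with at least 10 CPM in both cell types). They were Psma5 and Psma7 of the alpha ring, Psmb1, Psmb4, Psmb6 and Psmb7 of the beta ring, Psmc6, Psmd1 and Psmd4 of the base, Psmd7, Psmd11 and Psmd12 of the lid, the chaperone Psmd9 and the interacting protein Psme3ip1. No activator was among them. Psma5 was the most extreme, at 141 CPM in macrophages and 274 CPM in tumour cells with RP-6306, a ratio of 0.515 (0.443 to 0.596), and at 120 and 282 CPM with vehicle, a ratio of 0.426 (0.364 to 0.496). Psma7 had ratios of 0.590 and 0.589, and Psmb7 0.5485 and 0.558. Within the alpha ring Psma1, Psma4 and Psma6 went the other way, for instance Psma1 with 1.20 (1.05 to 1.35) and 1.36 (1.21 to 1.52), so subunits of 1 ring did not shift together between the cell types. The order of members was still similar, with a Spearman rho over 41 genes of 0.903 with RP-6306 and 0.894 with vehicle.

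**Figure D4:**
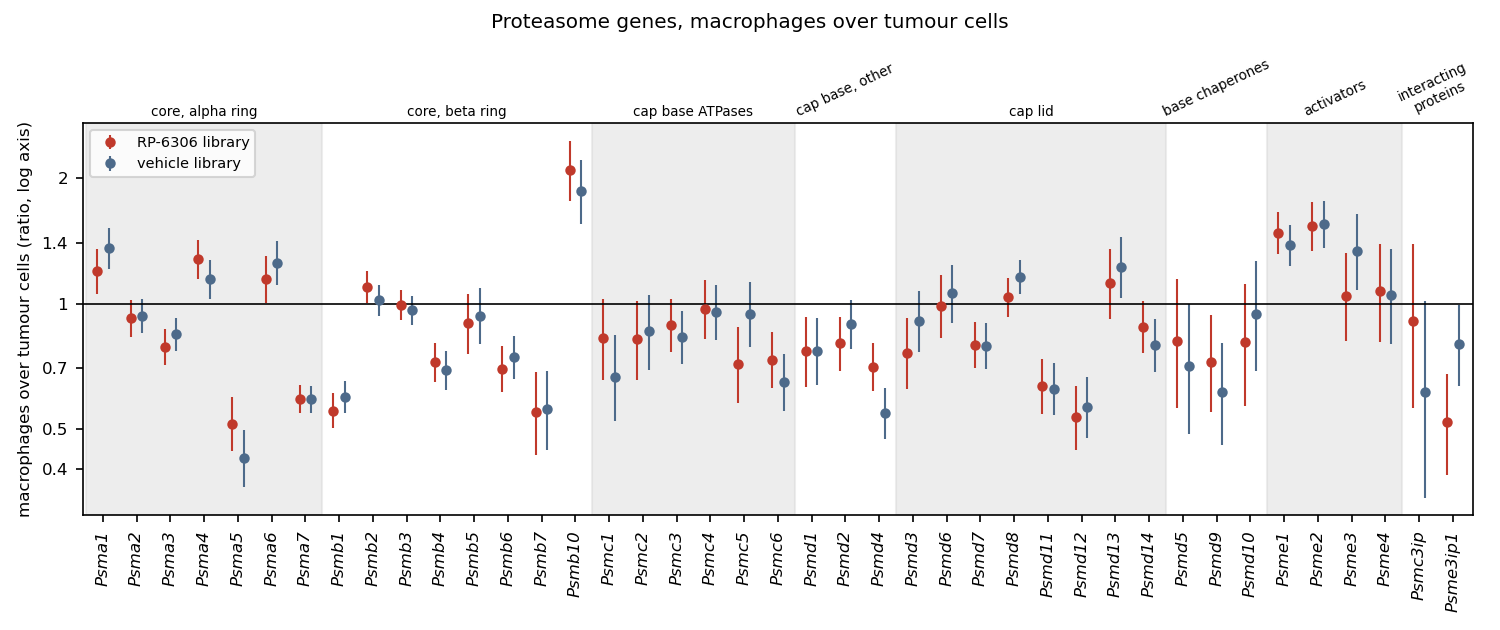
Level in macrophages over level in tumour cells for each of 41 members, on a log axis, with the RP-6306 library left of the vehicle library. Points are ratios of CPM and bars exact 95% counting intervals. Psmb10, Psme1 and Psme2 have the highest points in both libraries, and Psma5 is the lowest at 0.515 and 0.426.

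RNA of tumour markers was found in the macrophage gate, and whether it came from free RNA, doublets or another source was not tested. The 5 tumour markers not used by the gates stood at 26.8 CPM in macrophages with RP-6306 and 39.5 CPM with vehicle, which is 5.92% and 6.92% of their level in tumour cells. With that share of the tumour profile subtracted, the macrophage over tumour ratio of the 39 genes was 0.825 with RP-6306 and 0.826 with vehicle.

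The catalytic pairs also set the cell types apart. The inducible Psmb10 made up 65.8% (59.2 to 71.95) of Psmb10 and Psmb7 UMIs in macrophages and 33.5% (32.8 to 34.3) in tumour cells of the RP-6306 library, and 60.55% (53.7 to 67.1) and 31.5% (30.7 to 32.3) in the vehicle library. Psmb9 made up 36.1% (31.3 to 41.1) of Psmb9 and Psmb6 UMIs in macrophages and 13.0% (12.6 to 13.4) in tumour cells with RP-6306, and 30.3% (25.9 to 34.95) and 12.4% (12.0 to 12.8) with vehicle. Psmb8 made up 67.5% (62.9 to 71.8) of Psmb8 and Psmb5 UMIs in macrophages and 51.3% (50.7 to 52.0) in tumour cells with RP-6306, and 63.75% (59.2 to 68.1) and 47.5% (46.8 to 48.2) with vehicle. In each of the 3 pairs the inducible share was higher in macrophages than in tumour cells in both libraries, with intervals that do not overlap. Between treatments the tumour intervals did not overlap for the beta2 and beta5 pairs and overlapped for the beta1 pair, while those of macrophages overlapped for every pair. Shares of transcripts from different genes depend on how well each is captured, so they are not shares of assembled particles.

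**Figure D5:**
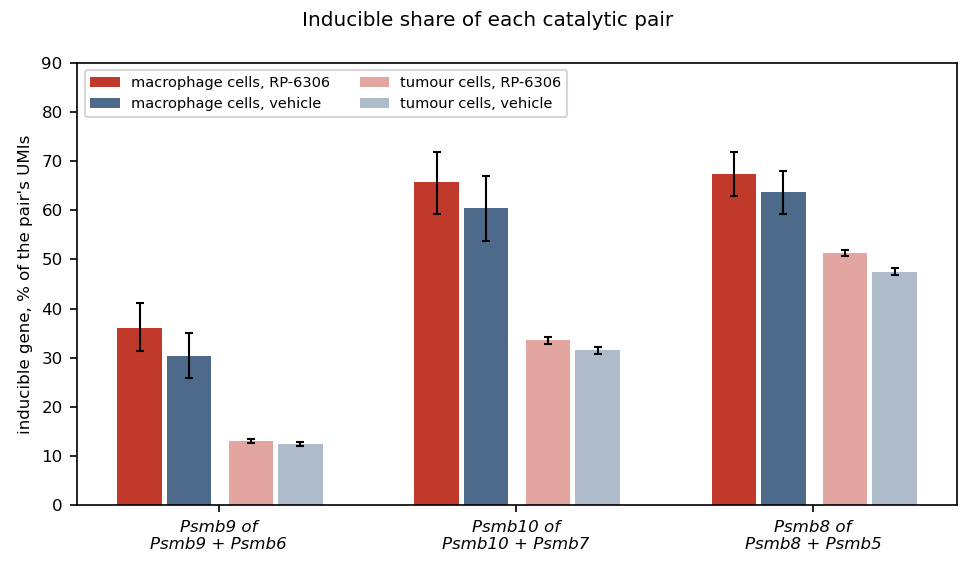
Inducible gene as a percentage of the UMIs of each catalytic pair, for macrophages and tumour cells of the RP-6306 and vehicle libraries. Bars are pooled shares from 0 and error bars exact binomial 95% intervals, which cover counting error only. Macrophage bars are above tumour bars in all 3 pairs, from 36.1% against 13.0% for Psmb9 to 67.5% against 51.3% for Psmb8 in the RP-6306 library.

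Because Psmb10, Psme1 and Psme2 stood apart both between cell types and along the interferon bins, their promoters are shown beside those of members that did not. RefSeq windows on GRCm38.p6, from 250 bases before to 50 after the start, were at hand for 33 of the 39 genes, as 36 windows. A gene was counted if any of its windows matched, whereas the shares of all windows count each window once. Both strands were searched for the interferon-stimulated response element as TTTC with any 2 bases before another TTTC, and for the antioxidant-response element as TGACNNNGC, which contains its stricter form TGACTCAGC. Capitals mark matches of the interferon letters in the first 5 stretches and of the antioxidant letters in the last 2. The stretch of Psme1 spans its RefSeq start, with the match from 9 bases after it, and lies within the gene by GENCODE. The one of Psmb10 lies before the GENCODE start of the gene, and the rest lie before the RefSeq start.
Psme1, chr14:55578484-55578513, + strand: tgcaggtttcgagctgtgcTTTCGCTTTCc
Psme2, chr14:55591102-55591181, − strand: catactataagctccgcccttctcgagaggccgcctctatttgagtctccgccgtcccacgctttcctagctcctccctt
Psmb10, chr8:105938445-105938524, − strand: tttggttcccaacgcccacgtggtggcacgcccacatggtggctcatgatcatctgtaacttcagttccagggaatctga
Psmb3, chr11:97703254-97703333, + strand: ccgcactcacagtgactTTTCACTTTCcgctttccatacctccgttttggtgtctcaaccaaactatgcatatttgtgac
Psmd4, chr3:95042635-95042714, − strand: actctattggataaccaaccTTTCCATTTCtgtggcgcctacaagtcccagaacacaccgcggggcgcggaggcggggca
Psmb5, chr14:54617996-54618075, − strand: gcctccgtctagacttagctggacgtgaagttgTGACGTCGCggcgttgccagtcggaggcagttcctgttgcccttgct
Psmb6, chr11:70525277-70525356, + strand: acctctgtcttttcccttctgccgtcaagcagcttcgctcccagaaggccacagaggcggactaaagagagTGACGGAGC
The interferon element was found in the windows of 4 of 33 genes (12.1%), Psmb3, Psmd4, Psmd9 and Psme1, against 3.44% of all 32851 windows. Of these, Psme1 had a ratio above 1 in the interferon bins of both libraries. Psmb3 had 1.10 with RP-6306 and 0.878 with vehicle, Psmd4 had 0.982 and 1.03, and Psmd9 had 1.08 and 0.698. These letters are not in the windows of Psme2 and Psmb10, nor in those of Psmb8 and Psmb9. TGACNNNGC was found for 6 genes (18.2%, against 12.4%), Psmb5, Psmb6, Psmc6, Psmd12, Psmd9 and Psme4, and TGACTCAGC for 0 (against 0.454%). The box CCAAT was found for 12 genes (36.4%, against 37.4%), and its longer form CCAATNNG, which contains it, for 8 (24.2%, against 14%). A match is a match of letters and does not show that a factor binds there. Psme1 (ENSMUSG00000022216, chr14:55578123-55581529, + strand) and Psme2 (ENSMUSG00000079197, chr14:55587441-55591113, − strand) are near neighbours by GENCODE M21 on GRCm38, while Psmb10 (ENSMUSG00000031897) is at chr8:105935735-105938444.

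In tumour cells thinned to 4000 UMIs the 39 genes gave a mean of 30.2 UMIs per cell with RP-6306 and 30.7 with vehicle, with 5th to 95th percentiles of 18 to 46 and 18 to 47. The variance over the mean was 2.46 with RP-6306 and 2.68 with vehicle, where counting alone gives about 1. For the median member it was 1.06 and 1.075, and for the member with the highest value 1.36 and 1.46. This measure grows with the mean, so the sum and single genes cannot be compared by it. In macrophages of at least that depth (159 with RP-6306 and 166 with vehicle) the mean was 26.9 UMIs in both libraries, and the variance over the mean 1.96 and 1.99. At that depth Psmb10 was detected in 34.6% (27.2 to 42.5) of macrophages and 19.25% (18.4 to 20.2) of tumour cells with RP-6306, and in 32.5% (25.5 to 40.2) and 18.2% (17.35 to 19.1) with vehicle. Without thinning these shares were 37.3% and 41.3% with RP-6306, and 34.7% and 40.8% with vehicle, at the unequal depths given above. No cell type that lacks the gene was measured for a background share.

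Other genes of the pathway were taken from lists, and counted at 1.1-fold in tumour cells. Subunits with other names were Sem1, at 651.5 CPM with RP-6306 and 621 CPM with vehicle (ratio 1.05, 1.04 to 1.06), the ubiquitin receptor Adrm1, at 64.9 and 60.9 CPM (1.065, 1.03 to 1.105), and the deubiquitinase Uchl5, at 29.3 and 32.1 CPM (0.912, 0.865 to 0.962). Of 12 assembly factors and regulators, 0 were higher (against 9.80% of all genes tested) and 3 were lower (against 20.2%), and their median ratio was 0.986. The lower ones were the core chaperones Psmg1 (17.6 CPM with RP-6306 and 20.6 CPM with vehicle, ratio 0.854) and Psmg2 (35.8 and 40.6 CPM, 0.882) and the inhibitor Psmf1 (28.2 and 31.1 CPM, 0.908). The core chaperone Pomp had 310 and 299 CPM (1.04, 1.02 to 1.05).

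Of 10 genes around NRF1, 0 were higher and 4 were lower, against the same 9.80% and 20.2% of all genes tested, with a median ratio of 0.979. Nfe2l1 itself had 96.7 CPM with RP-6306 and 98.5 CPM with vehicle (ratio 0.981, 0.952 to 1.01). The furthest from 1 were the small Maf partners Maff (128 and 157 CPM, 0.816) and Mafk (40.6 and 46.5 CPM, 0.875), and the deglycosylase Ngly1, which processes NRF1 (21.6 and 24.3 CPM, 0.887). The other lower one was the related factor Nfe2l2 (205 and 226 CPM, 0.906). Among 10 ubiquitin genes and shuttles the median ratio was 1.04, and 8 of the 10 had a ratio above 1, against 41.1% of all genes tested. The shuttle Ubqln1 had 56.9 CPM with RP-6306 and 52.2 CPM with vehicle (1.09).

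Some genes of class I antigen presentation differed more between the libraries than the proteasome genes did. Of 9 genes of class I antigen loading, a list that includes the regulators Irf1 and Nlrc5, 8 had at least 10 CPM. Of these, 3 were higher with RP-6306 and 0 lower, against 9.80% and 20.2% of all genes tested. They were B2m (1465 CPM with RP-6306 and 1210 CPM with vehicle, ratio 1.21), H2-K1 (2690 and 2357 CPM, 1.14) and H2-D1 (1191 and 1051 CPM, 1.13), of which the H2 genes have near relatives whose reads may be lost. The peptide transporter Tap1 had 44.0 and 40.6 CPM (1.08, 1.035 to 1.13). Erap1 (1.046), Irf1 (1.002), Tapbp (0.9835) and Tap2 (0.957) had ratios within the range of the proteasome members. Psmb8, outside the set by its rule, had 131 CPM with RP-6306 and 118 CPM with vehicle (1.11, 1.08 to 1.14), and Psmb9 had 40.5 and 39.4 CPM (1.03, 0.980 to 1.08). The list of 10 interferon-induced genes summed to 381 CPM with RP-6306 and 193 CPM with vehicle, so the members differed far less between the libraries than the genes used to bin the cells.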

How the data were processed

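The deposited values are whole-number UMI counts for each barcode and gene, without normalization, per the file headers. Those headers name Cell Ranger 7.1.0, whereas Cell Ranger 2.1.1 and mm10 stand in the submitters' processing notes. Other filters before deposit are not given in the sources at hand. All 44 matching identifiers, and 52081 of 55357 in all, matched GENCODE M21 on GRCm38.

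Cells had at least 500 genes and at most 15% mitochondrial UMIs. Tumour cells had at least 3 Krt8 and Krt18 UMIs and at most 1 of Ptprc, Lyz2, C1qa and Fcer1g together. Macrophages had at least 3 Lyz2, at least 1 Cd68 or Csf1r and at most 1 Krt8 or Krt18 UMIs. Counts were summed per gate and library and scaled to CPM (numpy 2.4.6, scipy 1.17.1). Intervals are exact Poisson for levels, exact conditional for ratios and exact binomial for shares. With 1 library per group no test was run. Doublets were left in, since the automatic Scrublet call (scanpy 1.11.5) marked 1 cell with RP-6306 and 0 with vehicle. Leaving out the highest scores is an alternative, as is TMM scaling (edgeR 4.0.16). Interval code was tested on simulated data.

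The members and lists were chosen with earlier results of these data known. Named in full were Psmb5, Psmb6, Psmb7, Psmb10, the activators, and in each class the highest, the lowest and the most different members. In the other lists, the 3 genes furthest from a ratio of 1 at 10 CPM or more were named, and further genes were named after their values were seen. A few results on the ubiquitin list and the promoter motifs are not reported here.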

Additional observations from a re-analysis of the deposited data

How the results depend on the processing

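The sum of the 39 genes in tumour cells, 0.979 for RP-6306 over vehicle, was 0.990 with TMM scaling, 0.987 as a mean of per-cell CPM and 0.986 with a total that leaves out ribosomal, mitochondrial and Malat1 UMIs. It was between 0.978 and 0.980 with a stricter tumour gate, without a cell filter and without the highest doublet scores. Members at least 1.1-fold lower numbered 2 as reported, 1 each with the stricter gate, without the highest doublet scores and as a mean of per-cell CPM, and 0 each with TMM scaling and with the reduced total. Those at least 1.1-fold higher numbered 0 in every setting. The share of all genes at least 1.1-fold higher, 9.80% as reported, was 15.6% with a minimum of 1 CPM and 8.07% with one of 50 CPM. Macrophage over tumour was 0.782 with RP-6306 and 0.791 with vehicle under the reduced total. The high over low G2/M ratio was 1.11 in each library at 2000 UMIs, and 1.10 with RP-6306 and 1.09 with vehicle among cells of 8000 to 16000 UMIs, a limit chosen after seeing the data. The cause of these shifts was not tested. No value changed its direction among the called ones, and Psmb10 and Psma5 stayed the highest and lowest macrophage over tumour ratios in each setting. No paired analysis was possible because each group has 1 library. The macrophages were 279 cells with RP-6306 and 271 with vehicle, and 38 of 41 intervals there included 1, which does not show that levels were equal.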
